A study of Mus musculus with 2 samples.

Results

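The immunity-related GTPases, also called p47 GTPases or IRG proteins, are a family of GTP-binding proteins that mouse cells make in response to interferons. Here 7 genes of the family were followed, Igtp, Irgm1, Irgm2, Iigp1, Tgtp1, Tgtp2 and Ifi47, among 22909 genes that the array probes could be matched to. They were picked by name with the results of these arrays known, their ratios included, so the values below describe them and are not a test. A probe belonged to a gene when its RefSeq accession was listed for that gene, which gave 8 probes for 6 of the 7 genes. Tgtp1 had no probe of its own accession. Tgtp1 and Tgtp2 are nearly identical genes, and the Tgtp2 probe is therefore treated as shared by the pair.

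IRG proteins bind to membranes that surround microbes inside the cell. Effector proteins of the family, which carry the usual GKS sequence in the nucleotide-binding loop, collect on the vacuole around a parasite or bacterium and break it open. Regulatory proteins with a GMS sequence in that loop sit on the membranes of the cell itself and keep the effectors inactive there. Igtp (Irgm3), Irgm1 and Irgm2 are the regulators, and Iigp1 (Irga6), the Tgtp pair (Irgb6) and Ifi47 (Irgd) are effectors.

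RNA of whole colon came from C57BL/6 mice. Control mice carried Villin-Cre, and EP4 cKO mice carried Villin-Cre together with EP4flox/flox, so Cre recombinase was present in both genotypes. The Villin promoter drives Cre in the epithelium of the intestine, and other cells of the colon wall keep Ptger4, the gene of EP4. Mice of the study were 8 weeks old. There was 1 Cy3-labelled Agilent array per genotype, and each array received RNA combined from 3 pools of tissue, so the spread between mice is unknown, no p-value was computed and every difference compares 2 arrays.

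Interferons act on promoters through short DNA motifs, and the promoters of 7 IRG genes on chromosome 11 are shown because 5 of them share an arrangement of motifs that the other two, Irgm1 and Gm12250, do not have. The GAS motif (TTCNNNGAA) is known for responses to interferon gamma, and the ISRE core (GAAA, 2 bases of any kind and GAAA again) is bound by IRF proteins. The sequences are those of RefSeq on GRCm38.p6, each with the 110 bases before the annotated start of the gene, written 5′ to 3′ on the strand of the gene, with matches to either motif on either strand in capitals. Igtp lies at chr11:58199446-58199555 (plus strand), Irgm2 at chr11:58214867-58214976 (plus), Tgtp1 at chr11:48992247-48992356 (minus), Tgtp2 at chr11:49064213-49064322 (minus), Gm12185 at chr11:48927183-48927292 (minus), Irgm1 at chr11:48871421-48871530 (minus) and Gm12250 at chr11:58183733-58183842 (plus).
Igtp: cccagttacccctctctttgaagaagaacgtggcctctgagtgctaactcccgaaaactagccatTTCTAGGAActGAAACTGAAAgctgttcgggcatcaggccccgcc
Irgm2: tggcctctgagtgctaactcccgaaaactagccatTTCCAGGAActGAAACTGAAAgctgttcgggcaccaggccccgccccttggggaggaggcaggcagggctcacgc
Tgtp1: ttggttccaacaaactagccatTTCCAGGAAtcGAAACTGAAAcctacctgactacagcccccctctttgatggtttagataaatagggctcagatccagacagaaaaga
Tgtp2: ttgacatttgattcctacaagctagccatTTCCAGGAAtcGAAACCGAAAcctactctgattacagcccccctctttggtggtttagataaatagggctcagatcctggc
Gm12185: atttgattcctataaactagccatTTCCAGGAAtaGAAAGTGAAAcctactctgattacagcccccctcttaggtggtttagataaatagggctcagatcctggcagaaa
Irgm1: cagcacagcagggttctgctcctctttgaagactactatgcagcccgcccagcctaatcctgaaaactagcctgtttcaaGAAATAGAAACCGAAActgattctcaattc
Gm12250: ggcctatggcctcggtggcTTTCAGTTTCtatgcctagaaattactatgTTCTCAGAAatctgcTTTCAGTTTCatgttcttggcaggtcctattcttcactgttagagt

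In Igtp, Irgm2, Tgtp1, Tgtp2 and Gm12185 a GAS was followed on the strand of the gene by an ISRE that began 11 bases after the first base of the GAS. The ISRE began 34 bases before the start in Igtp, 64 in Irgm2, 77 in Tgtp1, 70 in Tgtp2 and 75 in Gm12185. Within a stretch of 32 bases that ended with the ISRE, 26 bases were the same in all 5 promoters, and any 2 of the promoters were 84.4% to 96.9% identical. Outside it the promoters shared longer runs in part, with 61 identical bases in a row between Igtp and Irgm2 and 114 between Tgtp2 and Gm12185. Genes of the family are related by descent, so these promoters are not independent of each other.

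Irgm1 had an overlapping pair of ISRE matches that began 30 and 24 bases before the start, and no GAS. Gm12250 (Irgb10) had an ISRE on the opposite strand on both sides of a GAS. Of the 17 IRG genes searched, 12 had a promoter window of 300 bases (250 before the start and 50 after), and 6 of these held a GAS, 8 an ISRE, 6 both and 4 neither. Ifi47 was among the 4. Over all 32851 windows of the same length, 8.30% held a GAS, 3.44% an ISRE and 0.454% both. The arrangement with 11 bases between the starts was found in 5 windows, 0.0152% of all, which were the 5 named above. It was searched for after these sequences had been seen. A match describes letters and not the binding of a factor.

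Directions below rest on the labels of the arrays, because Ptger4 did not mark the array labelled EP4 cKO, which is called EP4 cKO here by that label. Its brighter probe gave 6227 in Villin-Cre and 5661 in EP4 cKO (log2 ratio -0.14 ± 0.20), and its dimmer probe gave 393 and 592. Whether these probes lie in the floxed part was not tested. Well above background were 45.4% of 56593 probes for Villin-Cre and 51.6% for EP4 cKO, no spot was saturated, and 14669 genes had a value. Past 2-fold, 4.86% of these genes were higher in EP4 cKO and 7.87% lower. Thus 38.2% of the genes past 2-fold were on the higher side, against 48.9% to 61.3% under 4 other normalizations, 94.5% when the arrays were scaled to E1A control spots and 13.9% with no filter on dim probes.

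Signals are processed intensities of the scanner software, scaled on each array to a trimmed mean of 2500, in arbitrary units. The ± beside a signal is the error that the software gave to the spot, and beside a log2 ratio it is the same error carried through. It covers the reading of a spot and not the difference between mice. A ratio is EP4 cKO over Villin-Cre, and levels of different probes are not compared with each other. Summed signals of marker lists, given further on, are weighted toward their brightest probes.

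All 6 measured genes of the 7 followed here were higher on the EP4 cKO array, by 6.36-fold to at least 239-fold. All 6 were more than 4-fold higher, as were 1.37% of all genes, and 3 were more than 32-fold higher, as were 0.252% of all genes. Their median log2 ratio was 5.49, beside -0.10 for all genes with a value. The lowest of the 6, Irgm1, had rank 122 among 14669 genes. These shares are given as background only, since the same ratios chose the genes.

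Among the regulators, Igtp, which protects membranes of the cell and lipid droplets from the effectors, gave a signal of 1621 ± 165 in Villin-Cre and 42984 ± 4298 in EP4 cKO. Igtp was therefore well measured in control colon and 26.5-fold higher in EP4 cKO colon (log2 ratio 4.73 ± 0.21). Irgm2 gave 2095 ± 212 and 22951 ± 2295. The log2 ratio was 3.45 ± 0.21, in the same direction as Igtp, its neighbour on chromosome 11.

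Irgm1, a regulator known for its part in resistance to mycobacteria and in autophagy, had 3 probes. The brightest gave 2122 ± 214 in Villin-Cre and 13489 ± 1349 in EP4 cKO. The second gave 1559 and 10865, and the dimmest 357 and 2629. The 3 probes differed in brightness and were alike in ratio, with log2 ratios of 2.67 ± 0.21, 2.80 and 2.88 (mean 2.78, SD 0.11 over 3 probes). The spread of 0.21 from the lowest to the highest was about as large as the software error of a single ratio. These are repeat readings of the same RNA and not replicates of the mice.

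Among the effectors, Iigp1, which coats and disrupts the vacuole of Toxoplasma gondii, gave 33.3 in Villin-Cre, not well above background, and 30017 ± 3002 in EP4 cKO. Before scaling, the median pixel of the spot was 41.0 beside a local background of 27 in the control, and 10603 beside 32 in EP4 cKO. Iigp1 thus went from near background to a bright spot, and only a bound can be given. With the control held at the lowest signal that was well above background on that array, 125, Iigp1 was at least 239-fold higher (log2 ratio at least 7.90) with this scaling and background correction, while normexp and quantile normalization gave a bound of 6.68. Its place among all genes is open to the same limit, and by the bound it had rank 2 of 14669.

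The Tgtp2 probe, which stands for the Tgtp pair of vacuole-loading effectors, gave 257 ± 38.2 in Villin-Cre and 32738 ± 3274 in EP4 cKO. It was above background in both and 127-fold higher in EP4 cKO (6.99 ± 0.26, rank 5). The log2 ratio of Tgtp2 was 6.21 after normexp and quantile normalization and 8.03 under scaling to the E1A spots. Ifi47, an effector that is found on vacuoles of Toxoplasma, gave 397 ± 48.3 and 30226 ± 3023. Its difference was 76.2-fold (6.25 ± 0.23, rank 9), and its control signal, too, was low but above background. Under the same 2 alternatives the log2 ratio of Ifi47 was 5.73 and 7.29.

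**Figure D1:**
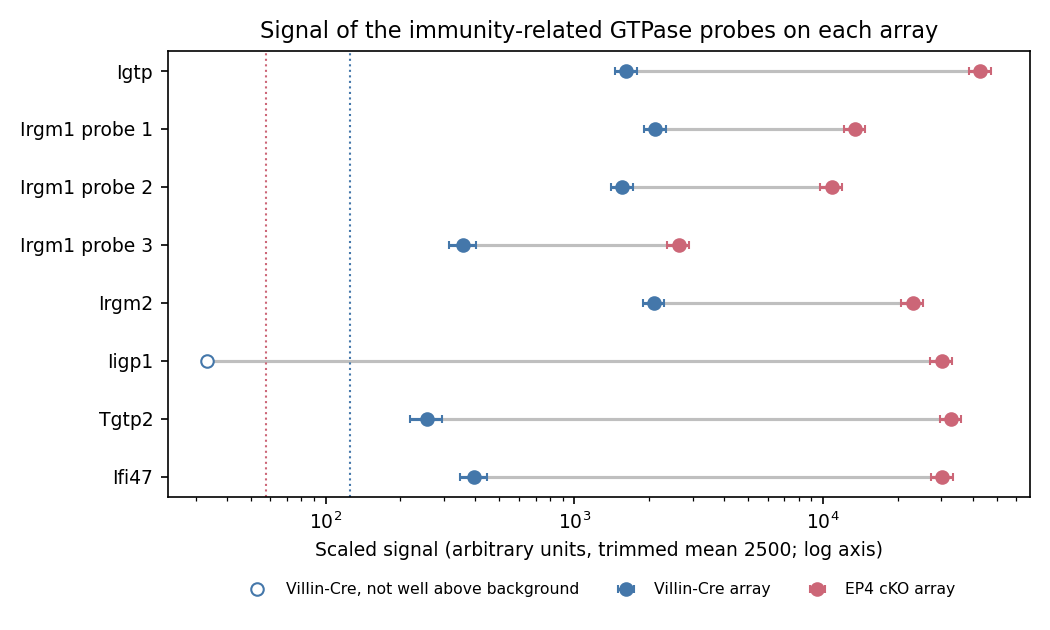
Scaled signal (arbitrary units, log axis) of the 8 IRG probes on the Villin-Cre array (blue) and the EP4 cKO array (red), with the error given by the scanner software as bars, an open circle for a spot not well above background and dotted lines at the lowest signal that was well above background on each array (125 and 57.8). Each of the 8 probes was brighter on the EP4 cKO array, and the control spot of Iigp1 (33.3) was the only spot not well above background.

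In order of their ratios the genes ran Iigp1, Tgtp2, Ifi47, Igtp, Irgm2, Irgm1. The 3 effectors had log2 ratios of 6.25 to 7.90 (median 6.99) and the 3 regulators 2.67 to 4.73 (median 3.45), with no overlap between these 6 genes. Gm12250, an effector outside them that is described below, had a bound of 4.48, within the range of the regulators. The other IRG genes described below were not sorted into these groups. Of those, Gm4951 had a bound of 5.70, above the regulators. Gm5431 (2.43), Gm4841 (0.44), F830016B08Rik (-0.23), Irgq (-0.33) and 9930111J21Rik1 (-0.78) lay below all 6. The step from Ifi47 to Igtp was 1.52 ± 0.31, and that from Igtp to Irgm2, at 1.28 ± 0.29, differed from it by less than the software error. Tgtp2 lay above Ifi47 by 0.74 ± 0.34 and Irgm2 above Irgm1 by 0.79 ± 0.29. Iigp1 is a bound, so its distance of 0.91 from Tgtp2 depends on where the control is held, and with its control spot kept at its own dim signal the ratio of Iigp1 would be 9.81. All steps between measured genes were larger than the software error of the difference, and none can be set against a spread between mice.

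**Figure D2:**
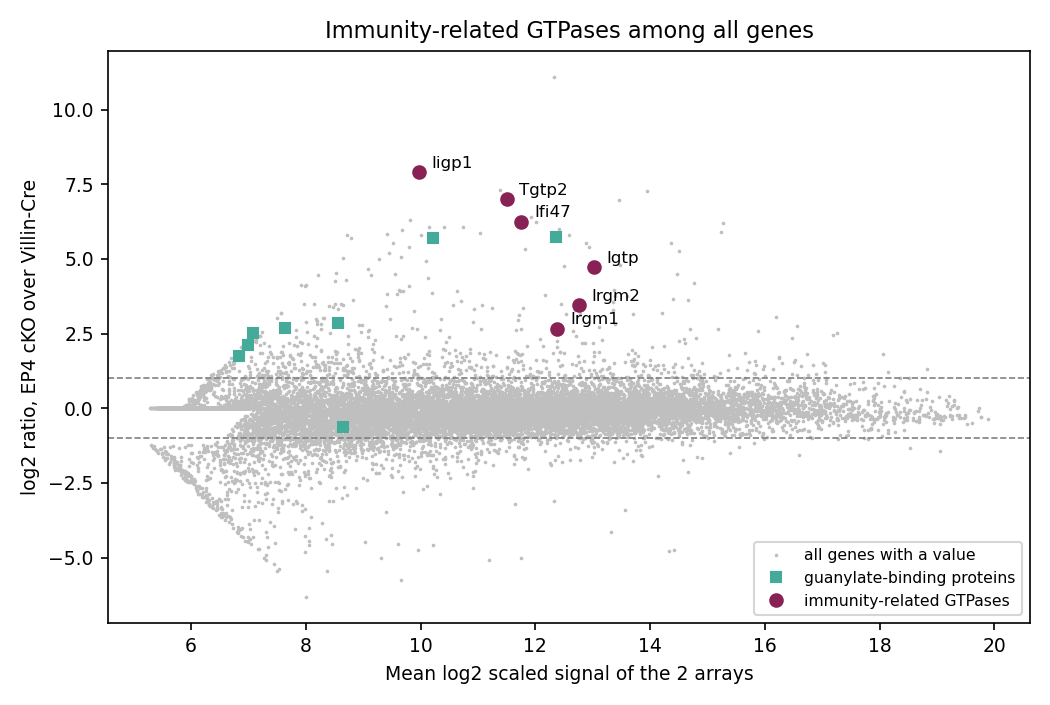
log2 ratio (EP4 cKO over Villin-Cre) of 14669 genes against their mean log2 scaled signal on the 2 arrays (grey), with the IRG genes in purple, the guanylate-binding proteins in green and dashed lines at 2-fold. The 6 IRG genes followed here lie between 2.67 and 7.90, above the median of all genes at -0.10. The value of Iigp1 (7.90) is a lower bound, as are those of Gbp4, Gbp5, Gbp6 and Gbp8.

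The genes nearest to the IRG median in ratio, of those well above background on both arrays, were Ifi27l2a (5.53), Isg15 (5.53) and Ifit3 (5.55) above it and Apol9a (5.40), Ubd (5.32) and H2-Eb1 (5.26) below it. Nearness was measured as the difference in log2 ratio over 2 arrays. Isg15 is a ubiquitin-like modifier, Ifit3 an antiviral protein, Ubd a ubiquitin-like protein (FAT10) and H2-Eb1 a chain of MHC class II.

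The family has further members, and 10 other IRG genes with 15 probes were examined. Of these 10, 7 had a value, and past 2-fold 3 were higher and 0 lower, beside 4.86% and 7.87% of all genes. Their median log2 ratio was 0.44. Gm4951, on chromosome 18, gave 30.1 in Villin-Cre and 6524 in EP4 cKO. It was not well above background in control colon and was at least 52.0-fold higher in EP4 cKO with this scaling and background correction. Its second probe, at least 11.3-fold higher, moved the same way. The log2 ratio of Gm4951 went from 5.70 to 4.51 after normexp and quantile normalization and to 4.60 when both probes were averaged. It was 7.76 with the control kept at its own dim signal.

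Gm12250 encodes Irgb10, an effector that acts on bacteria and their membranes. It gave 114 and 2790, with the control not well above background, and was at least 22.3-fold higher. Its second probe gave 30.0 and 256, a bound of 2.04-fold, and the log2 ratio of the gene went from 4.48 to 2.75 when both were averaged and to 3.37 after normexp and quantile normalization. Gm5431, which lies next to Irgm1, gave 184 and 988 and was 5.38-fold higher (2.43 ± 0.32). These 3 genes had the direction of the genes above, and 2 of them are bounds.

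The remaining genes differed by less than 2-fold at the brightest probe. Gm4841 gave 49791 and 67531 at the brightest probe (log2 ratio 0.44 ± 0.20), while its second probe, not well above background in the control, gave 31.2 and 430, at least 3.43-fold higher. Its probes thus disagreed in size, and the mean of both was past 2-fold (1.11). The gene 9930111J21Rik1 gave 1898 and 1107 at the brightest probe (-0.78 ± 0.21) and 60.3 and 194 at the other, a bound of 1.55-fold in the opposite direction. F830016B08Rik (-0.23 ± 0.20) and Irgq (-0.33 ± 0.21), a distant relative that takes part in quality control by autophagy, were slightly below 0, and with 9930111J21Rik1 they changed sign to 0.81, 0.71 and 0.26 under scaling to the E1A spots. Gm12185, 9930111J21Rik2 and the testis gene Irgc1 did not rise well above background in either genotype.

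**Figure D3:**
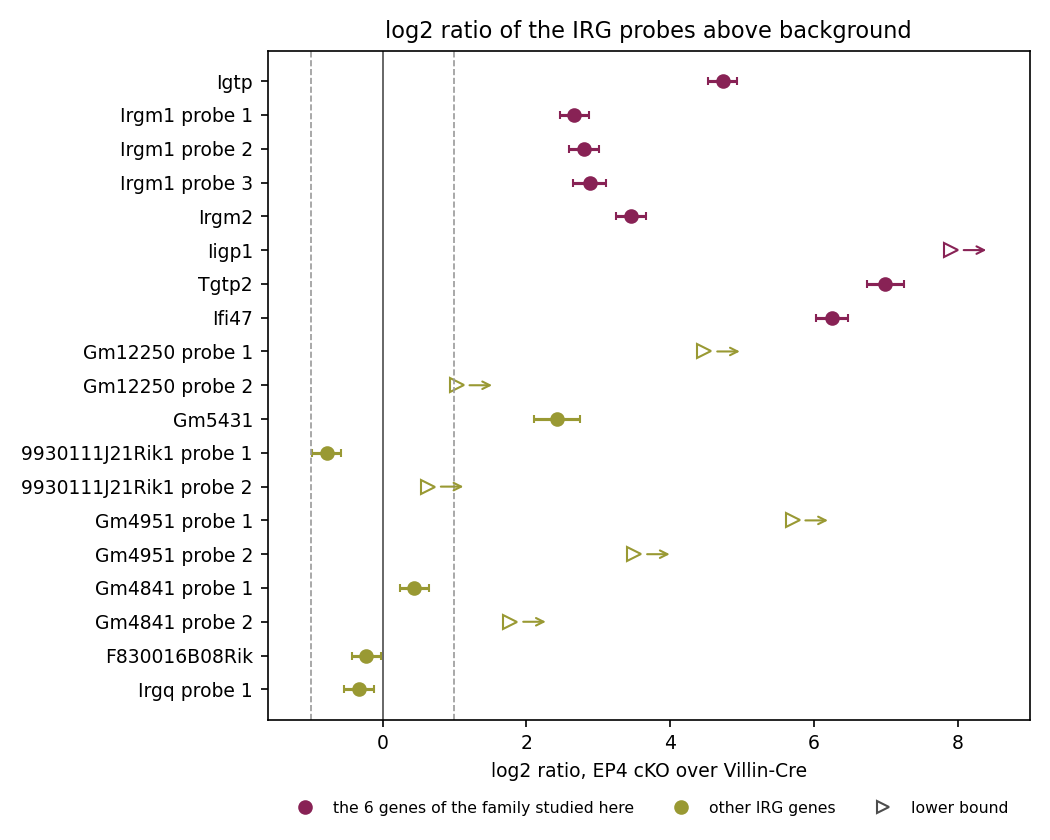
log2 ratio (EP4 cKO over Villin-Cre) of the IRG probes with a ratio above or below 0, with the software error as bars, arrows for lower bounds and dashed lines at 2-fold. The 8 probes of the genes followed here (purple) lie at 2.67 or higher, and those of the other IRG genes (olive) spread from -0.78 to at least 5.70.

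Most IRG genes lie in 3 clusters, a pair on chromosome 11 and another on chromosome 18. By gene order, 19 genes that are not of the family lay inside the clusters or were among the 3 nearest on each side with a value. Of these, 1 was more than 2-fold higher (Smim3, beside Iigp1, 2.14-fold) and 2 were more than 2-fold lower (BC053393 and Olfr1393, with bounds of -1.55 and -1.65), which is near the 4.86% and 7.87% of all genes. All 19 lay below the lowest of the IRG genes followed here, Irgm1 at 6.36-fold. Psme2b, which lies inside the first cluster, was at 0.95 (1.94-fold). The shift of 0.16 under 75th percentile scaling is enough to take Psme2b past 2-fold, so the count of 1 higher gene rests on the main scaling. Of the IRG genes in the clusters, 9930111J21Rik1, Gm4841 and F830016B08Rik lay below Smim3.

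**Figure D4:**
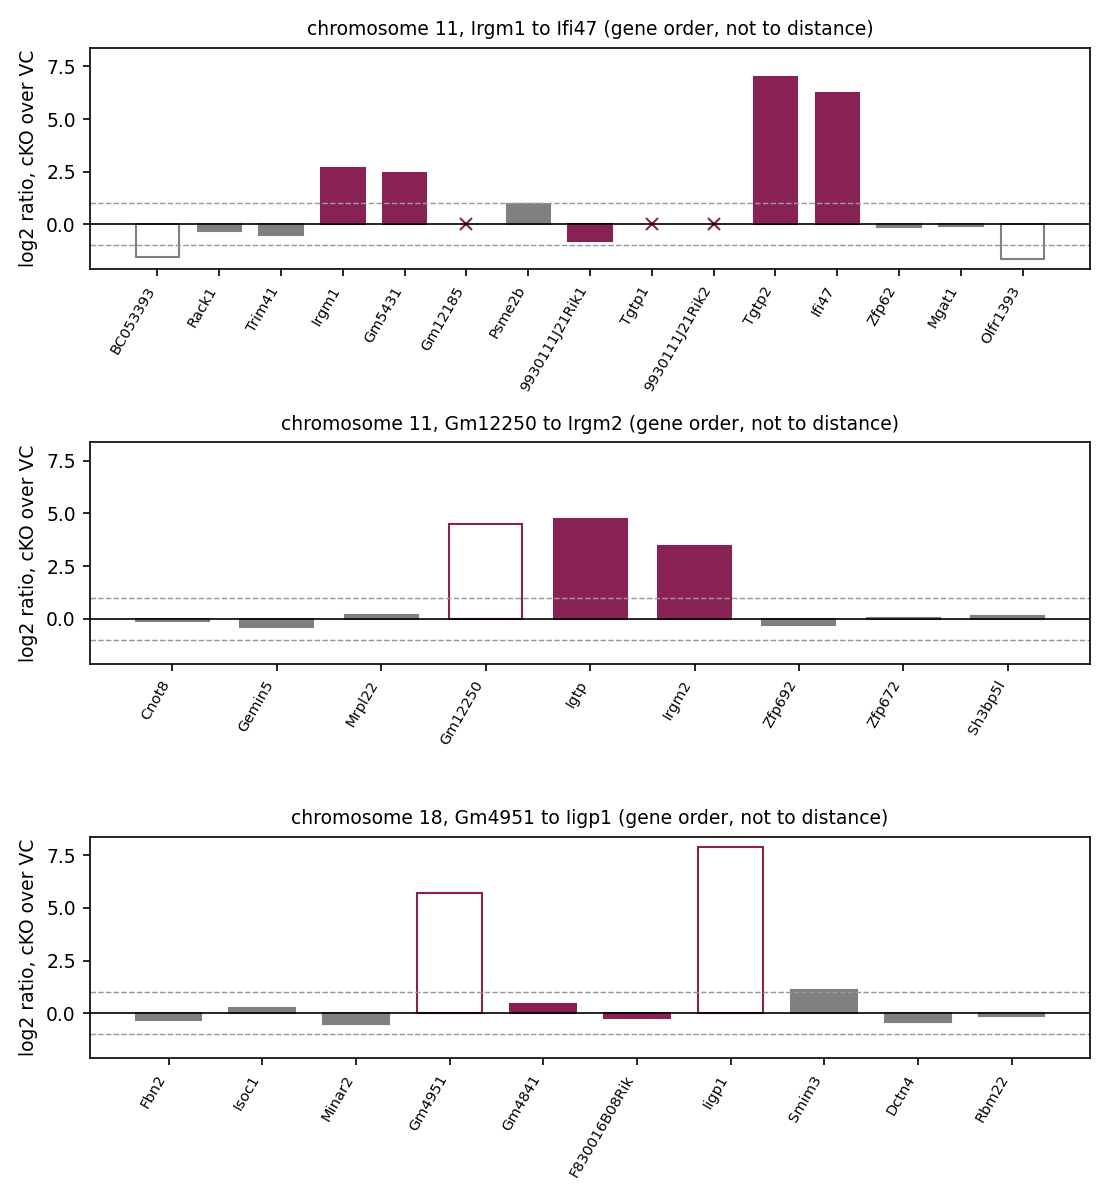
log2 ratio (EP4 cKO over Villin-Cre, abbreviated VC) of the genes in and beside the 3 IRG clusters, in gene order and not to distance, with IRG genes in purple, other genes in grey, open bars for bounds, crosses for genes without a value and dashed lines at 2-fold. The tallest bars stand at IRG genes, the highest of the 19 other genes is Smim3 at 2.14-fold, and 9930111J21Rik1 (-0.78), Gm4841 (0.44) and F830016B08Rik (-0.23) are IRG genes below it.

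The steps that lead to IRG expression were described with lists of the interferon pathway, again by counts past 2-fold beside the 4.86% of all genes that were higher and the 7.87% that were lower. Of 4 ligands, 3 had a value. Ifng, the strongest known inducer of the family, gave 149 and 177 (log2 ratio 0.25). Ifnl3, an interferon lambda with the near copy Ifnl2, gave 281 and 710 (1.34 ± 0.26), and Ifnb1 gave 181 in the control and was below background in EP4 cKO, at least 3.14-fold lower. All of these signals were low.

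Of 9 receptor and kinase genes, 0 were past 2-fold in either direction (median log2 ratio 0.26, range -0.55 to 0.86), and 1 was higher under 75th percentile scaling and under loess. The largest was that of Jak2, a kinase of the interferon gamma receptor, with 1324 and 2403. Downstream of the receptors, 7 of 10 response factors were higher and 0 lower (median 1.81). Irf7, a factor of the interferon response, was at 2.76, Stat2 at 1.88 and Irf9 at 1.75, and Irf1 at 1.36. Ciita and Nlrc5, which switch on MHC class II and class I genes, were not well above background in control colon and were higher by at least 63.3-fold for Ciita and 32.1-fold for Nlrc5. The second probe of Ciita gave a bound of 1.80, and those of Stat2 and Nlrc5 gave no fold.

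Of 5 feedback inhibitors of the pathway, 3 were higher and 0 lower. Socs1, which blocks Janus kinases, gave 361 and 1802 (2.32 ± 0.24), Socs3 was at 1.69 and Usp18, which removes Isg15 from proteins, at 5.42. The Villin-Cre spot of Usp18 (136) was not well above background, although brighter than the lowest signal that was (125). The value of Usp18 is therefore a ratio to an uncertain dim spot and not a bound. Ptpn2 (-0.08) and Pias1 (-0.14) were within 2-fold. Guanylate-binding proteins, the larger GTPases that follow IRG proteins to the vacuole, were higher in 7 of 8 genes with a value and lower in 0 (median 2.59). Of 10 genes with a probe, 4 were well above background on both arrays and 3 of these were higher, while the other 4 with a value had it through the EP4 cKO array alone. Gbp2 gave 720 and 38141 (5.73 ± 0.21), Gbp3 was at 5.69 and Gbp7 at 2.85, Gbp5 and Gbp6, of those 4, had bounds of 2.68 and 2.51, and Gbp10 was at -0.64.

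IRG proteins need the Atg8 conjugation machinery of autophagy to reach vacuoles. None of its genes was past 2-fold, with 0 of 12 higher and 0 of 12 lower (median -0.03), where Gabarapl1 was the lowest at -0.98. Of 6 genes for ubiquitin ligases and adaptors of the vacuole, 0 were past 2-fold (median 0.31). Of 5 inflammasome and pyroptosis genes with a value, 2 were higher, Casp4 (1.62), a sensor of bacterial lipopolysaccharide, and Gsdmd (1.12), which forms the pore. The second probe of Gsdmd was at 0.85, and 1 of the 5 was higher when probes were averaged. Of 11 dynamin-related GTPases not known to respond to interferon, 1 was higher (Dnm1, 1.74 at the brighter probe and -0.02 at the other) and 1 lower (Atl1, a bound of -2.11), with a median of 0.13. Under scaling to the E1A spots, which moved the median of all probes by 1.04, 7 of 9 receptor and kinase genes and 6 of 12 Atg8 conjugation genes passed 2-fold on the higher side, as did 39.1% of all genes.

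In RNA of whole tissue, a change in the number of cells of a type and a change in RNA per cell cannot be told apart. All 9 epithelial markers were measured, 1 was past 2-fold (Krt20, 1.80), and their summed signal was 2478910 in Villin-Cre and 2920720 in EP4 cKO. Of 5 general leukocyte markers 4 had a value and 2 were higher (Coro1a, 1.53, and Cd52, 1.43), while Ptprc was at 0.97 and Laptm5 at -0.58, and the summed signal was 3015 and 7429. Of 8 macrophage markers 6 had a value and 1 was higher (Mrc1, a bound of 2.11), while Csf1r was at -0.79. Their sums were 55091 and 72812, and the defining Adgre1 and Lyz2 did not rise well above background in either genotype. Of 7 T cell markers 1 was higher (Cd3g, 1.28), with sums of 13169 and 13830, and of 5 markers of B and plasma cells 3 had a value and 0 were past 2-fold, with sums of 296 and 425.

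The fibroblast markers were lower together. Of 5, 4 had a value and all 4 were lower, with Dcn at -5.77 and Col1a2 at -5.03, Col1a1 and Lum bounded at -4.32 and -3.15, and a summed signal of 11290 and 252. Of 5 smooth muscle markers, 4 had a value and 1 was lower (Cnn1, -2.73), with sums of 22740 and 33389. Most of both sums came from Acta2 (18006 and 27719). The defining Myh11 did not rise well above background in either genotype, and Des (30.7) was not well above background in Villin-Cre. Acta2 (0.62 at the brighter probe and -0.58 at the other) and Tagln (0.38) were within 2-fold. Fibroblast markers thus differed together between the arrays. The leukocyte markers had a median log2 ratio of 1.20, with 2 of 4 past 2-fold and Laptm5 below 0. The remaining lists held markers on both sides of 0 or few past 2-fold. The part of these differences in the IRG ratios was not tested.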

How the data were processed

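RNA of whole colon was measured on 2 Agilent arrays, 1 per genotype, mapped to Villin-Cre and EP4 cKO by their labels. Scanner files deposited by the authors were used (Feature Extraction 12.0.3.1 by the file header, 11.5.1.1 by the submitters' processing notes). The deposited intensity taken from them was the background-subtracted processed signal, together with the flags of each spot. The study's methods scale each array to a trimmed mean of 2500 (2% removed at each end). The same was done here after control and outlier spots had been left out, a step that the methods do not state. The array grid refers to another genome build, so genes were named by RefSeq accession (32989 of 56593 probes, GRCm38.p6) and placed only by order.

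A gene took its probe with the highest mean log2 signal. A side not well above background was held at the lowest signal that was well above background on its array, which gives a bound. A dim side already brighter than that signal kept its own value, as Usp18 did in Villin-Cre. Signal over background limits what can be measured, and the number of arrays limits the precision.

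Members and lists were chosen with earlier results of these data known. Named were all IRG genes, Ptger4, up to 5 genes past 2-fold per list, defining markers near background and the 3 genes nearest to the IRG median on each side. Other genes, such as Irf1, Irf9, Ifng, Csf1r, Laptm5, Acta2, Tagln, Jak2, Gabarapl1, Gbp10, Ptprc and those beside the clusters, were singled out after their values were seen.

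Alternatives were 75th percentile scaling, a trimmed mean over all spots, loess (span 0.3), normexp (offset 50) with quantile normalization, a stricter filter on dim probes (both arrays), none at all, averaging the probes of each gene and thresholds of 1.5-fold and 4-fold. Scaling to the E1A control spots was added after the data were seen. A planned comparison of the proteins was not made here, and 1 gene of the lists is counted but not reported by name. The steps were tested on simulated data. Computations used R 4.3.3 (limma 3.58.1) and Python 3.11.15 (matplotlib 3.10.9, numpy 2.4.6, pandas 2.3.3, statsmodels 0.14.6).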

Additional observations from a re-analysis of the deposited data

How the results depend on the processing

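The 6 measured genes of the 7 followed here stayed more than 2-fold higher under each alternative that gave them a value (47 of 47 values under 8 settings). All 6 passed thresholds of 1.5-fold and 4-fold as well. With probes well above background on both arrays, Iigp1 had no value and 5 genes were counted. The median log2 ratio of 5.49 was 4.73 with that filter, 5.16 after normexp and quantile normalization and 6.53 after scaling to the E1A control spots. Single genes ranged from 6.68 to 9.81 (Iigp1), 6.21 to 8.03 (Tgtp2), 5.73 to 7.29 (Ifi47), 4.60 to 5.77 (Igtp), 3.35 to 4.49 (Irgm2) and 2.62 to 3.71 (Irgm1). The number of other IRG genes more than 2-fold higher fell from 3 to 1 with the filter on both arrays, because Gm12250 and Gm4951 are bounds. The number of pathway genes more than 2-fold higher went from 21 to 51 under the E1A scaling, which shifts the median probe by 1.04 and puts 39.1% of all genes past 2-fold higher. It was 14 with probes well above background on both arrays, where the guanylate-binding proteins went from 7 to 3, 18 when probes were averaged and 21 to 23 under the other settings. The other scalings and normalizations shifted the median by 0.13 to 0.17. No IRG gene past 2-fold changed direction. No paired analysis was possible because each genotype has 1 array. For the same reason no replicate could be left out. Of the other IRG genes, Gm4951 ranged from 4.51 to 7.76, Gm12250 from 2.75 to 5.51 and Gm5431 from 1.77 to 3.46. Low signals limit Iigp1, Gm4951 and Gm12250 to bounds.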
